A study of Mus musculus with 4 samples.

Results

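Genes that mark microglia and other macrophages were examined in 3 mouse medulloblastomas and in 1 normal cerebellum. A list of 41 genes was fixed by name, with earlier results of these data known. Each gene was read from the array probe set annotated to it alone. Of the 41 genes, 40 were measured among 19938 named genes in all, and the phagocytic gene Spp1 was not analysed here. The cerebellum came from a wild-type mouse aged 2 months. The Math1-Cre;SmoM2 line gave 2 tumours, from mice aged 1 and 2 months, in which Cre driven by Math1 (Atoh1) acts in granule neuron precursors and SmoM2 is an active form of the Hedgehog transducer Smoothened. The remaining tumour came from a PtchLacZ/+ mouse aged 5 months, which carries a lacZ allele of the Hedgehog receptor gene Ptch1. All mice shared a mixed C57BL/6 and C3H background, the labels give no treatment, and RNA was taken from the dissected tissue as a whole. The SmoM2 tumours are called the younger and the older one here, and tumour values are given in the order younger SmoM2, older SmoM2, PtchLacZ/+. There was 1 array for each tissue, and the labels do not give the number of animals behind it.

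Microglia are the resident macrophages of brain tissue. They depend on the receptor Csf1r and its ligands, carry a set of genes such as Tmem119 and P2ry12 in the healthy brain (called homeostatic), and can instead express genes for phagocytosis, lipid handling and lysosomal digestion, such as Cst7, Clec7a and Gpnmb, around dying cells, in development and in disease. That second program is triggered in part by the receptor Trem2, which signals through the adaptor Tyrobp. Macrophages at the borders of the brain, in the meninges and around vessels, carry the scavenger receptor genes Mrc1 and Cd163.

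Values are log2 levels, on which a difference of 1 is a doubling. Values after ± are the standard error from limma, a linear model fitted over all 19938 genes, and a gene is said to have risen or fallen if its Benjamini-Hochberg adjusted p in that model was under 0.05. No detection calls were used. In each array the lower quartile over named genes lay between 5.09 and 5.17, and levels under it are not shown to be above background. The tissues matched their labels in the granule cell lineage: 6 of 7 granule progenitor markers rose and 4 of 6 markers of mature granule neurons fell in the tumours, with median differences of 4.66 and -4.70. Array medians over named genes lay between 6.73 and 6.82.

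Tumour and cerebellum were set against each other first, to ask how the macrophage genes differ in tumour tissue. Of the 40 genes, 18 rose and 0 fell, where 6.70% of all genes rose and 9.30% fell. At an unadjusted p under 0.05 in the same limma fit, 25 were higher and 0 lower, beside 13.8% and 15.9% of all genes. The median difference over the 40 genes was 1.20, beside 0.04 over all genes. All 3 tumours lay above the cerebellum for 34 of the 40 (38.1% of all genes), and Siglech was the single member with all 3 below it (32.0% of all genes). At least 1 log2 unit above the cerebellum lay 21 of the 40 in the younger SmoM2 tumour (6.81% of all genes), 24 in the older (9.43%) and 24 in the PtchLacZ/+ tumour (7.91%). At least 1 unit below it lay 0 in each, beside 9.95%, 9.87% and 10.6% of all genes. In bulk tissue, more cells of a type and more RNA per cell cannot be told apart. By role, 3 of 3 C1q, 4 of 5 lysosomal, 4 of 6 identity, 3 of 8 phagocytic, 2 of 6 adaptor and receptor, 1 of 4 border macrophage and 1 of 8 homeostatic genes rose. With the older SmoM2, the younger SmoM2 or the PtchLacZ/+ tumour left out, 13.5%, 4.98% and 3.15% of all genes rose. Counts given below for such fits stand beside these shares.

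The contrast between homeostatic, phagocytic and border macrophage genes was read in every array. Tmem119, a membrane protein gene of mature microglia, read 6.48 in cerebellum, 6.13 and 6.41 in the younger and older SmoM2 tumour, and 6.64 with PtchLacZ/+. The tumours lay on both sides of the cerebellum. Its difference was -0.09 ± 0.25 (adjusted p = 0.870), with a 95% interval from -0.72 to 0.54. P2ry12, the purinergic receptor gene that guides microglial processes to injury, read 5.86 in cerebellum and 5.77, 5.95 and 6.07 in the tumours. Here too the groups overlapped, and the difference was 0.07 ± 0.20 (adjusted p = 0.871; interval -0.43 to 0.58). Sall1, a zinc finger factor that maintains microglial identity and is also expressed by neural progenitors, read 6.65 in cerebellum and 7.51, 7.53 and 7.33. All 3 tumours were higher and close to each other. Sall1 rose by 0.81 ± 0.18 (adjusted p = 0.0437), a call that was lost under quantile normalization (0.0706), with a trended prior variance (0.0707), and on leaving out the younger SmoM2 (0.124) or the PtchLacZ/+ tumour (0.127).

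All 3 measured phagocytic genes of the contrast were higher in every tumour, and 2 of them passed. Cst7, which encodes cystatin F, an inhibitor of lysosomal cathepsins, read 4.70 in cerebellum and 7.85, 7.95 and 9.22 in the tumours. Every tumour was higher, and the PtchLacZ/+ tumour was the highest. Cst7 rose by 3.64 ± 0.58 (adjusted p = 0.0185). The size of this difference is uncertain, since its level in the cerebellum was under the lower quartile. Gpnmb, a lysosome-associated glycoprotein gene of lipid-laden macrophages, read 6.01 in cerebellum and 9.18, 10.07 and 8.97 in the tumours, so that the older SmoM2 tumour was the highest. Gpnmb rose by 3.39 ± 0.46 (adjusted p = 0.0120), a 10.5-fold difference. Clec7a, the gene of the beta-glucan receptor dectin-1, read 5.10 in cerebellum and 6.38, 7.50 and 6.64 in the tumours. Its level in the cerebellum was close to the lower quartile of that array (5.09), so that the size of its difference is uncertain too. All tumours were higher, but the difference of 1.74 ± 0.46 did not pass (adjusted p = 0.0685). It passed without the older SmoM2 tumour (adjusted p = 0.00378), without the younger SmoM2 tumour (0.0470) and with a trended prior variance (0.0479), and ranged up to 0.117 over the settings tried.

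The border macrophage genes of the contrast lay near or under the lower quartile in most arrays. Mrc1, the mannose receptor gene, read 5.14 in cerebellum and 6.26, 5.35 and 5.10 in the tumours. The younger SmoM2 tumour was high and the other arrays lay close together, with a difference of 0.43 ± 0.48 (adjusted p = 0.649). Cd163, the haemoglobin scavenger receptor gene, lay between 4.60 and 4.83, under the lower quartile in all 4 arrays, and no level was shown.

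**Figure D1:**
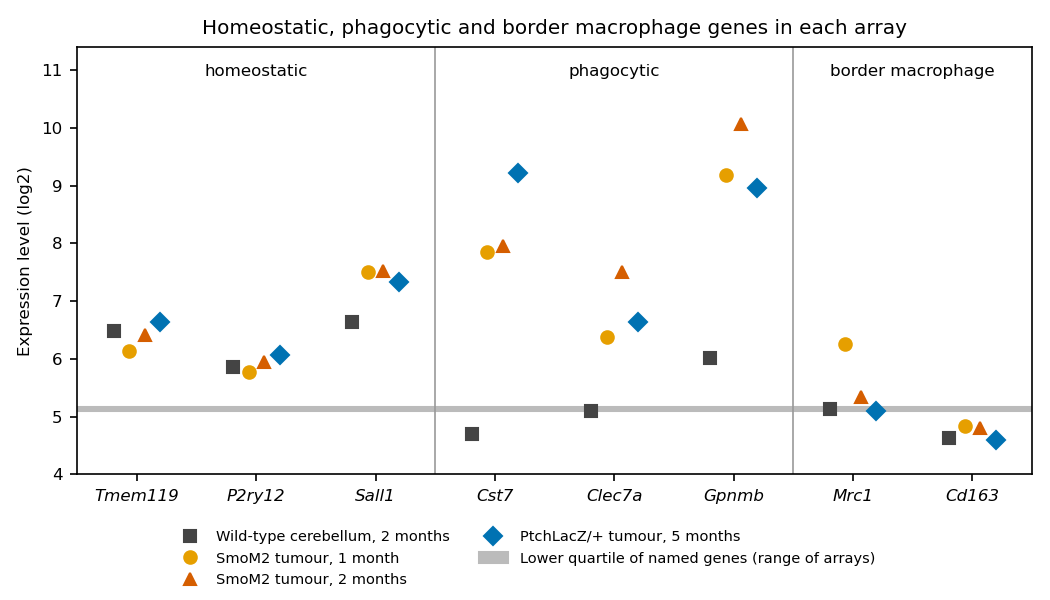
Log2 expression level (vertical axis) of the 8 measured contrast genes in each of the 4 arrays, 1 point per array, with the grey band marking the lower quartile of named genes. Cst7, Clec7a and Gpnmb lie higher in every tumour than in the cerebellum, Tmem119 and P2ry12 overlap, and Cd163 lies under the band in all arrays.

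Genes shared by macrophages of all kinds are called identity genes here. Of 6, 4 rose, with a median difference of 1.26, and all 6 were higher in every tumour. The count was 2 without the PtchLacZ/+ tumour. Laptm5, a lysosomal membrane protein gene of blood cells, read 7.95 in cerebellum and 9.81, 9.82 and 10.13 in the tumours, and rose by 1.97 ± 0.21. Cd53, a leukocyte tetraspanin gene, rose by 1.77 ± 0.23. Ptprc, the gene of the leukocyte marker CD45, rose by 1.32 ± 0.18 and Aif1, the gene of the microglial marker Iba1, by 1.19 ± 0.24, with adjusted p = 0.0133 and 0.0325. With the PtchLacZ/+ tumour left out, adjusted p was 0.0584 for Ptprc and 0.0904 for Aif1.

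Csf1r, the receptor on which microglia depend, read 7.70 in cerebellum and 8.41, 8.35 and 8.87 in the tumours. Each tumour was higher, but the difference of 0.84 ± 0.26 did not pass (adjusted p = 0.104), and among the settings tried it passed only when the older SmoM2 tumour was left out (0.0304). Itgam, the gene of the complement receptor chain CD11b, read 5.96 in cerebellum and 6.81, 6.59 and 7.90 in the tumours. The PtchLacZ/+ tumour stood apart from both others, and the difference was 1.14 ± 0.54 (adjusted p = 0.245). Itgam was read from the probe set annotated to it alone. A further 3 probe sets were annotated to both Itgam and Rpl35 and were not used.

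Of the 8 homeostatic genes, 1 rose (Sall1) and 0 fell, with a median difference of 0.22 and a range from -0.28 to 0.86. At an unadjusted p under 0.05, 2 were higher and 0 lower. Without the older SmoM2 tumour 2 rose, Sall1 and Olfml3, and without either of the other tumours 0 rose. Tmem119 and the adhesion ligand gene Selplg, which are neighbours on chromosome 5, differed by -0.09 and -0.06. P2ry12 and P2ry13, a related purinergic receptor gene, are neighbours on chromosome 3. P2ry13 read 6.98 in cerebellum and 7.45, 7.05 and 8.03 in the tumours, highest in the last, with a difference of 0.53 ± 0.39 (adjusted p = 0.474). Gpr34, a lysophospholipid receptor gene, was under the lower quartile in the cerebellum and both SmoM2 tumours. Siglech, a sialic acid-binding lectin gene, read 5.66 in cerebellum and 5.30, 5.29 and 5.54 in the tumours, a difference of -0.28 ± 0.19 (adjusted p = 0.424). Olfml3, a secreted matrix protein gene, differed by 0.86 ± 0.28 (adjusted p = 0.115). These counts and this range hold for the 8 genes listed here. Of 17 other microglia markers, kept in a separate list below, 7 rose and 0 fell. The largest difference there was 3.21 ± 0.32 for Fcrls, from a level under the lower quartile in the cerebellum.

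The distance between homeostatic and identity genes was also taken within each tumour. The median identity gene was 1.08, 1.24 and 1.68 above the cerebellum. Set against that median, Tmem119 was at -1.43, -1.32 and -1.52 and P2ry12 at -1.17, -1.15 and -1.46. All 8 homeostatic genes lay under the identity median in every tumour, as did 18287 of all 19938 genes. Cst7 lay above it by 2.07, 2.01 and 2.84 and Gpnmb by 2.08, 2.81 and 1.28. All 3 C1q genes and 4 of 8 phagocytic genes lay above it in every tumour, where 589 of all genes did. These are array differences that were unequal between genes, and they have no test. In the cerebellum Tmem119, P2ry12, Cst7 and Gpnmb all read under the array median over named genes of 6.76. How the level on the array bears on the size of a difference was not tested.

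**Figure D2:**
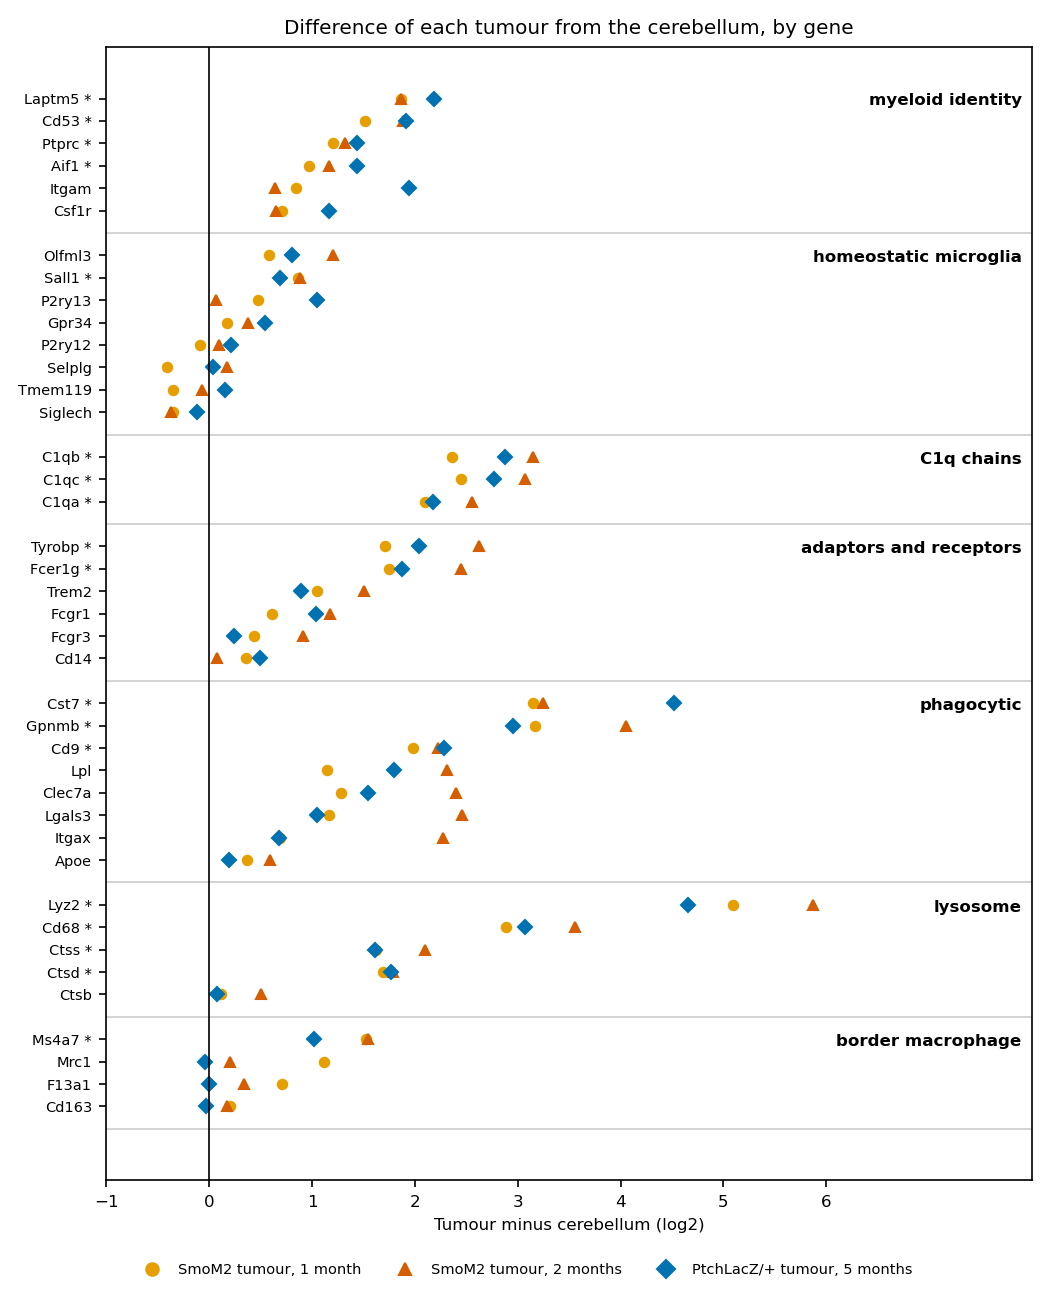
Difference of each tumour from the cerebellum (horizontal axis, log2) for the 40 measured genes, grouped by role, with 1 point per tumour and an asterisk at genes that passed in the limma fit of the 3 tumours. All 3 C1q genes, Cd68, Lyz2, Cst7 and Gpnmb lie beyond 2 in every tumour, and Siglech lies under 0 in every tumour.

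The C1q genes encode the chains of the molecule that starts the classical complement pathway and tags synapses and debris for uptake. They are neighbours on chromosome 4, and all 3 rose. C1qb read 6.99 in cerebellum and 9.35, 10.14 and 9.87 in the tumours, and rose by 2.79 ± 0.34 (adjusted p = 0.00949). C1qc rose by 2.76 ± 0.28 and C1qa by 2.28 ± 0.24. For each, the older SmoM2 tumour was the highest and the younger SmoM2 tumour the lowest of the tumours. Each passed in all 3 fits that leave out a tumour.

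Of 6 adaptor and receptor genes the 2 adaptors rose and the 4 receptors did not pass. The count was 4 without the older SmoM2 tumour and 1 without the PtchLacZ/+ tumour, where 13.5% and 3.15% of all genes rose. Tyrobp, the adaptor of Trem2, read 5.82 in cerebellum and 7.53, 8.45 and 7.87 in the tumours, and rose by 2.13 ± 0.38 (adjusted p = 0.0238; 0.0586 without the PtchLacZ/+ tumour). Fcer1g, the common gamma chain of the Fc receptors, read 6.57 in cerebellum and 8.32, 9.02 and 8.45 in the tumours, and rose by 2.02 ± 0.32 (adjusted p = 0.0179). Trem2, the lipid-sensing receptor gene, read 6.53 in cerebellum and 7.58, 8.03 and 7.42 in the tumours. Every tumour was higher, and the difference of 1.15 ± 0.28 missed the threshold (adjusted p = 0.0567). It passed with arrays centred on their medians (0.0417), among genes above the lower quartile (0.0491) and without the older SmoM2 tumour (0.00873). The Fc receptor genes Fcgr1 and Fcgr3 differed by 0.94 ± 0.27 and 0.53 ± 0.30, and the lipopolysaccharide co-receptor gene Cd14 by 0.31 ± 0.22, with adjusted p = 0.0848, 0.332 and 0.461. Fcgr1 passed without the older SmoM2 tumour (0.0415).

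Of the 8 measured phagocytic genes, 3 rose (Cst7, Gpnmb and Cd9) and all 8 were higher in every tumour, with a median difference of 1.75. Without the older SmoM2 tumour 7 rose, since Clec7a, Itgax, Lpl and Lgals3 then passed, and without the younger SmoM2 tumour 5 rose. In these fits 13.5% and 4.98% of all genes rose. Cd9, a tetraspanin gene also expressed by oligodendrocytes and neural progenitors, read 9.45 in cerebellum and 11.43, 11.68 and 11.73 in the tumours. The tumours lay close together, and Cd9 rose by 2.16 ± 0.20 (adjusted p = 0.00576). Lpl, the lipoprotein lipase gene, read 5.56 in cerebellum and 6.71, 7.88 and 7.36 in the tumours. Lgals3, the gene of galectin-3, was at 6.46 and at 7.62, 8.92 and 7.50 in the same order.

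Itgax, the gene of the integrin chain CD11c, read 5.54 in cerebellum and 6.23, 7.81 and 6.22. In Lpl, Lgals3 and Itgax the older SmoM2 tumour was the highest array, and the differences of 1.75 ± 0.46, 1.56 ± 0.60 and 1.21 ± 0.69 did not pass (adjusted p = 0.0676, 0.164 and 0.333). Apoe, the lipid carrier gene that astrocytes and Bergmann glia express strongly, read 12.83 in cerebellum and 13.20, 13.43 and 13.03 in the tumours, and differed by 0.38 ± 0.22 (adjusted p = 0.333). Beside Apoe, 8 of 11 astrocyte and Bergmann glia markers fell (5 without the PtchLacZ/+ tumour), with a median difference of -1.97 and a summed linear signal of 27820 in the cerebellum and 4967 to 8164 in the tumours. Their part in the Apoe value was not tested. Beside Cd9, 7 of 8 oligodendrocyte markers fell and 6 of 7 granule progenitor markers rose, and their part was not tested either.

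Of the 5 lysosomal genes 4 rose, and Lyz2 had the largest difference of the 40. Lyz2, the macrophage lysozyme gene, read 6.10 in cerebellum and 11.19, 11.97 and 10.75 in the tumours. Every tumour was higher, and the older SmoM2 tumour was the highest. Lyz2 rose by 5.21 ± 0.48 (adjusted p = 0.00576), a 37.0-fold difference. Its near-identical copy Lyz1 read 6.10 in cerebellum and 7.14 to 7.28 in the tumours, and how far each probe set reads the other gene was not determined. Cd68, a lysosomal membrane protein gene of macrophages, read 6.81 in cerebellum and 9.69, 10.36 and 9.88 in the tumours, and rose by 3.17 ± 0.30, a 9.02-fold difference.

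Of the 3 cathepsin genes 2 rose. Ctss, the cathepsin of antigen-presenting cells, read 9.07 in cerebellum and 10.70, 11.17 and 10.69 in the tumours, and rose by 1.78 ± 0.26 (adjusted p = 0.0147). Ctsd, an aspartic protease of all lysosomes, read 10.94 in cerebellum and 12.63, 12.73 and 12.70, and rose by 1.75 ± 0.17 (adjusted p = 0.00615). Ctsb, also present in most cells, was at 11.02 and at 11.14, 11.52 and 11.10, a difference of 0.23 ± 0.24 (adjusted p = 0.611). The lysosomal count was 4 of 5 whichever tumour was left out.

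Of 4 genes of border and monocyte-derived macrophages, 1 rose. Ms4a7, a tetraspan membrane protein gene, read 4.66 in cerebellum, under the lower quartile, and 6.18, 6.21 and 5.68. It rose by 1.36 ± 0.27 (adjusted p = 0.0326), a call lost without the younger SmoM2 tumour (0.0678). With the cerebellum at that level, the size of this difference is uncertain. F13a1, a coagulation factor gene of macrophages, read 5.19 in cerebellum and 5.90, 5.53 and 5.20, so that the younger SmoM2 tumour was the highest (adjusted p = 0.550).

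Promoters of these genes were searched for short motifs, and 4 are shown as examples from different roles, picked after the matches were seen: the identity gene Laptm5, the lysosomal gene Ctsd, the phagocytic gene Cst7 and the border macrophage gene Mrc1. The letters searched, on both strands, were GAGGAAG, which PU.1 (the macrophage factor encoded by Spi1) can bind, the E-box CACGTG, which lysosomal regulators of the TFE family can bind, and TATAAA. The sequences run from 250 bases before to 50 bases after the gene start, from RefSeq on GRCm38.p6, with matches in capitals. A match is a description of the letters.
Laptm5, chr4:130913066-130913365, plus strand: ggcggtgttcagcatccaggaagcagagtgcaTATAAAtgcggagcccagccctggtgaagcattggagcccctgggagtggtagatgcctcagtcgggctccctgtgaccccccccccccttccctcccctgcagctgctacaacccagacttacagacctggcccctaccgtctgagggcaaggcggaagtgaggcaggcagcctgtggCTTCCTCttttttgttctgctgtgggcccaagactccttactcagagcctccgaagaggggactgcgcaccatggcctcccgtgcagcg
Ctsd, chr7:142387778-142388077, minus strand: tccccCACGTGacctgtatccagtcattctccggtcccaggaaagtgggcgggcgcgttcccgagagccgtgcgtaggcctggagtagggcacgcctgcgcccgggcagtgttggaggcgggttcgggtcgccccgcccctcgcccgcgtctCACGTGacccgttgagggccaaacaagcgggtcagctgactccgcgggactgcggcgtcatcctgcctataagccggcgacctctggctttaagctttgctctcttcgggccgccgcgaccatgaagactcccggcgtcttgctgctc
Cst7, chr2:150570165-150570464, plus strand: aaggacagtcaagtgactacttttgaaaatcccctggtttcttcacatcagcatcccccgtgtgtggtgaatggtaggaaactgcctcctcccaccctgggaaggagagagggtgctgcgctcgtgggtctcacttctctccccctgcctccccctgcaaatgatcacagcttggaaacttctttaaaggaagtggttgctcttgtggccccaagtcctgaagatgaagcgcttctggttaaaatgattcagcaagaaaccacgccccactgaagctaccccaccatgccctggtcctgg
Mrc1, chr2:14229164-14229463, plus strand: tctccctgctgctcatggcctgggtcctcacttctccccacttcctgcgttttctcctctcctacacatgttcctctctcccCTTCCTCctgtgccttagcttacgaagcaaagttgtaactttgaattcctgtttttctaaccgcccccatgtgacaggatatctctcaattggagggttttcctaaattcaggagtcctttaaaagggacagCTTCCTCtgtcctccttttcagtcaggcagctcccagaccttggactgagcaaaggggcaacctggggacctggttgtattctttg

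In these windows Laptm5 held 1 match to the PU.1 letters and 1 to TATAAA, Ctsd 2 to the E-box, Mrc1 2 to the PU.1 letters, and Cst7 none of them. Of the 41 genes 32 were in the promoter table. A match to the PU.1 letters was present for 12 of these 32 genes (37.5%), against 15.4% of all 27025 genes in the table. It was present in 4 of 16 genes that rose and in 7 of 15 measured genes that did not pass. The E-box was present in 3 of 32 genes (9.38%, beside 8.09% of all) and TATAAA in 6 of 32 (18.8%, beside 15.7%).

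The ligands and receptors that act on microglia were read from a list of 15 genes. Of these, 2 rose and 3 fell, beside 6.70% and 9.30% of all genes. Neither Csf1r ligand passed: Csf1 differed by -0.19 ± 0.16 and Il34 by -0.23 ± 0.31 (adjusted p = 0.543 and 0.716). Tgfb1, a cytokine needed for the homeostatic program, read 6.76 in cerebellum and 7.32, 8.52 and 7.35 in the tumours (adjusted p = 0.312), and its receptor gene Tgfbr1 rose by 1.22 ± 0.27 (adjusted p = 0.0412). Cx3cl1, the neuronal chemokine whose receptor is on microglia, read 8.58 in cerebellum and 6.87, 7.04 and 6.64 in the tumours, and fell by 1.73 on the log2 scale (adjusted p = 0.0107).

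The receptor gene Cx3cr1 read 7.58 in cerebellum and 8.32, 8.29 and 9.06 in the same tumours, highest in the PtchLacZ/+ tumour (difference 0.97 ± 0.36, adjusted p = 0.151). Pros1, a bridging molecule for the uptake of dying cells, rose by 1.26 ± 0.24 (adjusted p = 0.0284), while the receptor genes Axl and Mertk differed by -0.08 and -0.30 and did not pass. Cd47, a surface signal that restrains phagocytosis, and Sirpa, its receptor, which neurons also express, fell by 1.67 and 1.56 (adjusted p = 0.0354 and 0.0104). Cd47 had 2 probe sets annotated to it alone, and the mean of both gave a larger difference of -2.35. Sirpa and Mertk were named after their values were seen. The count of 2 that rose was 4 without the older SmoM2 tumour, 1 without the younger and 0 without the PtchLacZ/+ tumour. The count of 3 that fell was 4, 3 and 2 in these fits, and the call lost was that of Cd47 (adjusted p = 0.0725 without the PtchLacZ/+ tumour). Tgfbr1 missed the threshold without the younger SmoM2 tumour (0.0848), without the PtchLacZ/+ tumour (0.120) and with arrays centred on their medians (0.0521), and Pros1 without the PtchLacZ/+ tumour (0.0858).

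Of 12 measured macrophage transcription factor genes, 2 rose and 2 fell, beside 6.70% and 9.30% of all genes. Irf8, a factor of microglia and monocytes, rose by 1.02 ± 0.20 and Runx1 by 1.07 ± 0.24, with adjusted p = 0.0308 and 0.0444. Maf and Mef2a, both also expressed in neurons, fell by 1.46 and 1.45. Without the older SmoM2 tumour 3 rose and 4 fell, and without the younger SmoM2 or the PtchLacZ/+ tumour 0 rose. Mef2a missed the threshold without the PtchLacZ/+ tumour (adjusted p = 0.0508), Irf8 also under quantile normalization (0.0573), and Runx1 also with arrays centred on their medians (0.0568). Spi1, the gene of PU.1, read 5.78 in cerebellum and 6.25, 6.77 and 6.35 in the tumours, higher in every tumour, with a difference of 0.67 ± 0.26 (adjusted p = 0.165).

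Markers from wider lists were read in the same way, beside the 6.70% of all genes that rose and the 9.30% that fell. Of 17 other microglia markers 7 rose and 0 fell (median 0.87), led by Fcrls, a microglial Fc receptor-like gene (3.21 ± 0.32), and Adgre1, the gene of F4/80 (2.16 ± 0.24). The levels of both in the cerebellum were under the lower quartile, so that the sizes of these differences are uncertain. Of 17 other phagocytic genes 8 rose and 0 fell (median 1.42). Without the older SmoM2, younger SmoM2 or PtchLacZ/+ tumour, the count of the microglia list was 11, 5 and 3 and that of the phagocytic list 12, 6 and 5. In these fits 13.5%, 4.98% and 3.15% of all genes rose. Cybb, the NADPH oxidase subunit gene, read 4.92 in cerebellum, under the lower quartile, and 8.13, 8.49 and 7.46 in the tumours. It rose by 3.10 ± 0.41 (adjusted p = 0.0118). Of 12 other border macrophage markers 3 rose: Ms4a4a, Ms4a6c and, named after its values were seen, Stab1, by 2.54, 2.04 and 1.59. Ms4a4a and Ms4a6c were under the lower quartile in the cerebellum, so that the sizes of their differences are uncertain. Lyve1, a marker of vessel and meningeal macrophages that was named after its values were seen, read 5.71 in cerebellum and 5.57 to 5.95 in the tumours.

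Of 7 monocyte, 12 neutrophil and 11 lymphocyte markers, 0 passed in limma, and at an unadjusted p under 0.05 1, 1 and 0 were higher and 0 lower, with median differences of 0.15, 0.22 and 0.18. The summed linear signal of the neutrophil markers was 364 in the cerebellum and 419 to 435 in the tumours. That of the 7 monocyte markers was 568 and 752 to 1061, and most of the difference lay in Vcan, a matrix proteoglycan gene that other cells also express. Without Vcan it was 350 in the cerebellum and 281, 387 and 277 in the tumours. The monocyte receptor gene Ccr2 was between 4.22 and 4.33 and the neutrophil gene S100a9 between 4.78 and 4.99, under the lower quartile in all arrays. So were 4 of the 7 monocyte, 5 of the 12 neutrophil and 4 of the 11 lymphocyte markers. A filter at the lower quartile of mean levels kept 3, 3 and 4 markers of these lists. For markers at such levels, no change passing does not show that the cells were absent or unchanged. Ccr2 and S100a9 were named after their values were seen. Lyz2 is also expressed by monocytes and neutrophils, and their part in its rise was not tested. Without the older SmoM2 tumour 1 monocyte marker rose and 1 fell, and 1 neutrophil marker rose. In that fit 2 endothelial and 3 mural and fibroblast markers also fell. With all tumours, 1 of 2 measured erythroid markers fell (9.30% of all genes) and 2 of 8 mural and fibroblast markers rose (6.70% of all genes). Of 8 endothelial markers 0 passed, with 0 higher and 1 lower at an unadjusted p under 0.05 in limma.

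**Figure D3:**
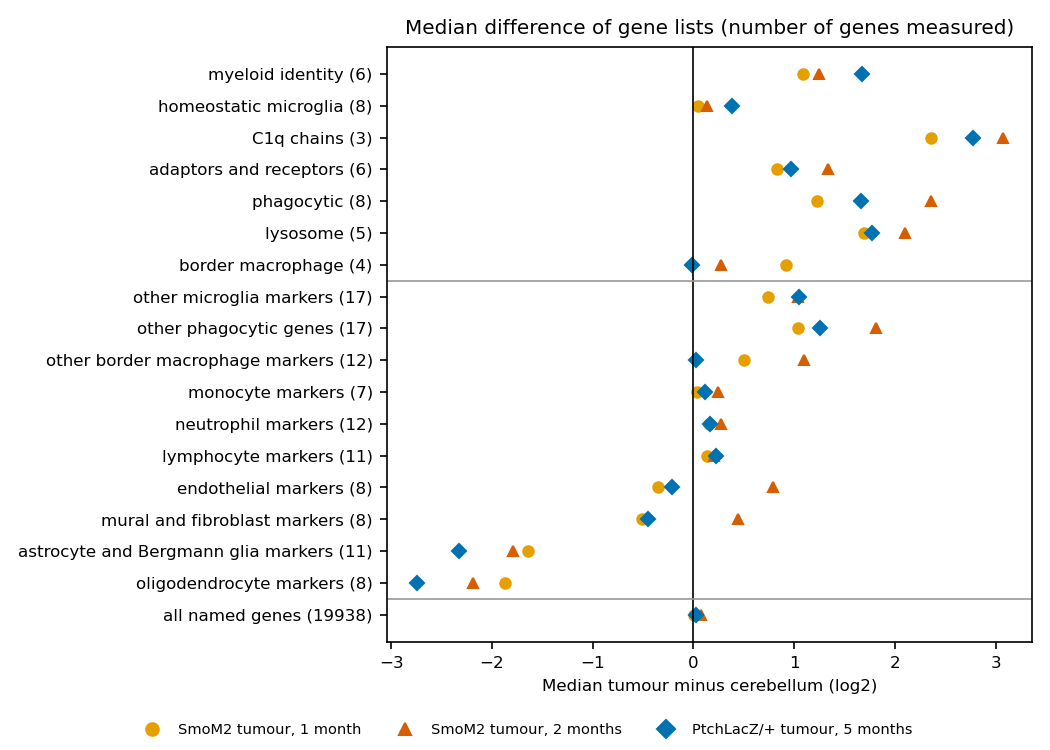
Median difference from the cerebellum (horizontal axis, log2) of each gene list in each tumour, 1 point per tumour, with the number of genes measured in brackets. Medians of C1q, lysosomal and phagocytic genes lie between 1.22 and 3.07, those of neutrophil and lymphocyte markers between 0.14 and 0.27, and those of astrocyte and oligodendrocyte markers under -1.

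The SmoM2 tumours at 1 and 2 months were compared next, to describe how the macrophage genes differ between them. There was 1 array at each age and no test, so that age cannot be told apart from other differences between these tumours. Most of the 40 genes were lower at 1 month: 32 were lower, where 59.8% of all genes were, and 8 were higher, where 40.1% were. The genes at least 1 log2 unit lower at 1 month numbered 4 (1.66% of all genes) and those at least 1 higher 0 (2.05% of all genes). Those 4 were phagocytic: Itgax (-1.58), Lgals3 (-1.30), Lpl (-1.17) and Clec7a (-1.12). All 8 phagocytic, all 5 lysosomal and all 3 C1q genes were lower at 1 month, with medians of -1.01, -0.48 and -0.62, beside -0.08 over all genes. So were 5 of 6 adaptor and receptor genes (median -0.52) and 6 of 8 homeostatic genes (median -0.19). Of the 4 border macrophage genes 1 was lower, with a median of 0.20.

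Identity genes differed little between the SmoM2 tumours, with a median of -0.06 and a range from -0.37 for Cd53 to 0.21 for Itgam. Mrc1 and P2ry13 were the members with the largest differences in the other direction, 0.91 and 0.40 higher at 1 month. Endothelial markers moved with the phagocytic genes: all 8 were lower at 1 month, with a median of -1.12, and their median against the cerebellum was -0.36 at 1 month and 0.79 at 2 months. Their part in the phagocytic differences was not tested.

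The PtchLacZ/+ tumour was last compared with the 2 SmoM2 tumours, between which genotype and age cannot be told apart. No member passed in limma, which had 1 residual degree of freedom, and 0.00% of all genes passed in either direction (adjusted p = 1 for every member). At an unadjusted p under 0.05, 2 members were higher (0.381% of all genes), Cst7 by 1.32 ± 0.26 and Itgam by 1.20 ± 0.27, and 0 were lower (1.02% of all genes). The next values in this direction were 0.77 ± 0.30 for P2ry13 and 0.49 ± 0.25 for Csf1r. The lowest were Lyz2 (-0.83 ± 0.40) and Itgax (-0.80 ± 0.68), with intervals from -1.87 to 0.22 and from -2.57 to 0.97.

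Of the 40 genes, 14 were higher in the PtchLacZ/+ tumour than in both SmoM2 tumours, as 23.8% of all genes were. Another 14 were lower than in both, as 31.1% of all genes were. By role, all 6 identity genes were higher than in both, and all 4 border macrophage genes were lower than in both. Of those 4, Cd163 was under the lower quartile in every array and Mrc1 in the PtchLacZ/+ tumour, so that their order is not shown to be above background. The medians were 0.34 and -0.52, beside -0.03 over all genes. Of the 8 homeostatic genes 5 were higher than in both SmoM2 tumours (1 of them, Gpr34, from levels under the lower quartile there) and 1 lower, with a median of 0.23. Of the 8 phagocytic genes 4 were lower and 2 higher, with a median of -0.29. Of the 6 adaptor and receptor genes 2 were lower and 1 higher, of the 5 lysosomal genes 3 and 0, and of the 3 C1q genes 0 and 0. The PtchLacZ/+ tumour and both SmoM2 tumours lay on opposite sides of the cerebellum for 3 of the 40 genes (Tmem119, Mrc1 and Cd163), as for 5.87% of all genes. Cst7 went the other way from Gpnmb (-0.66 ± 0.43), Itgax and Lgals3 (-0.77 ± 0.57). Oligodendrocyte and astrocyte markers were also lower in this tumour, with medians of -0.83 and -0.67, and their part was not tested.

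**Figure D4:**
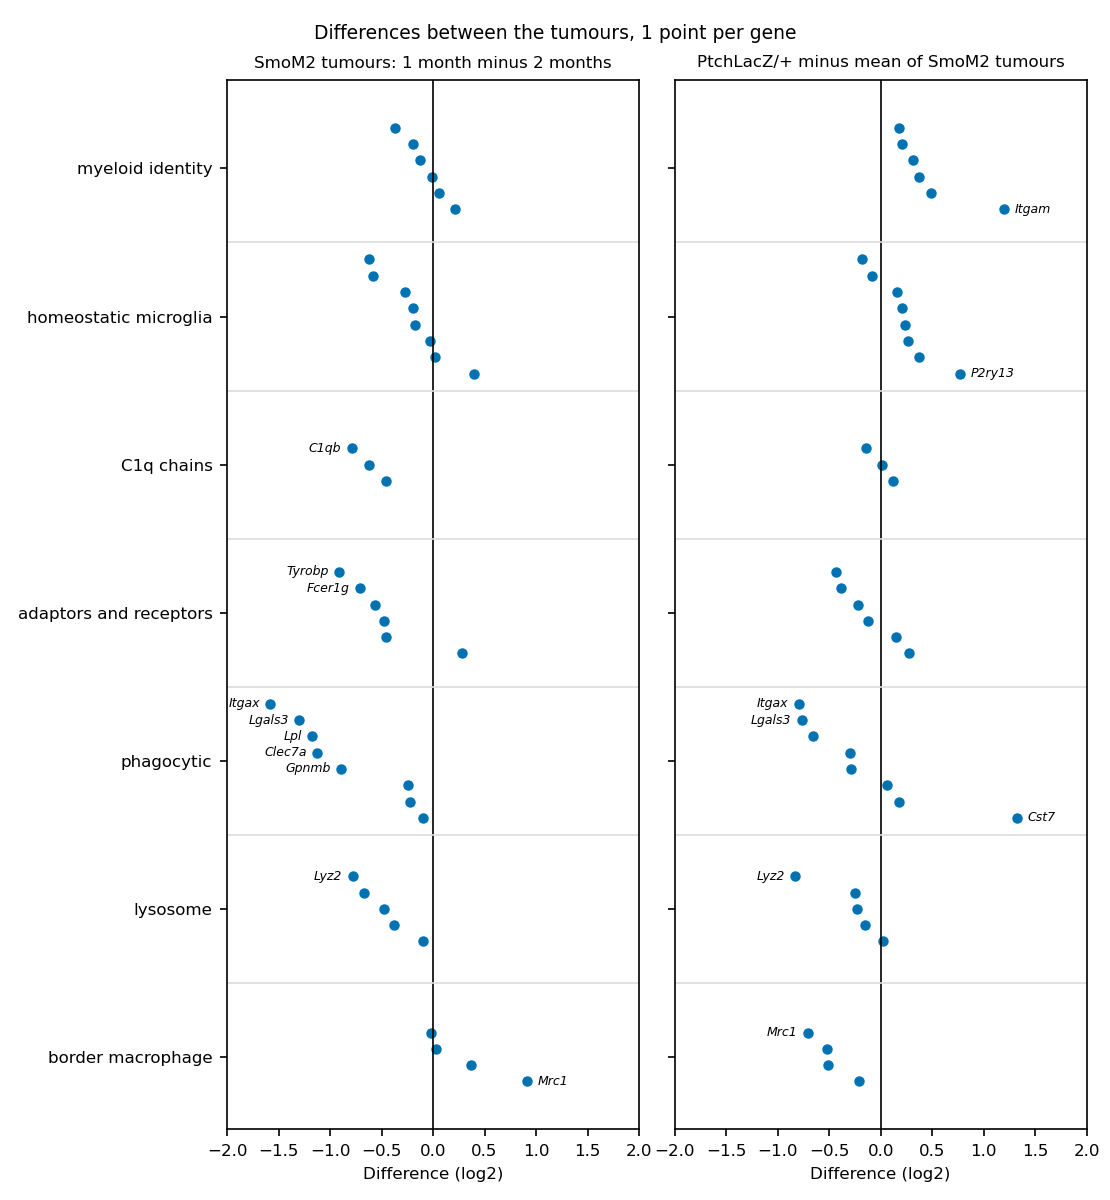
Differences between the tumours (horizontal axes, log2) by role, 1 point per gene, for the SmoM2 tumours at 1 month minus 2 months (left) and for the PtchLacZ/+ tumour minus the mean of the SmoM2 tumours (right). Itgax, Lgals3, Lpl and Clec7a lie beyond -1 on the left, and Cst7 and Itgam lie beyond 1 on the right.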

How the data were processed

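Total RNA of 4 tissues was hybridised to Affymetrix Mouse Gene 1.0 ST arrays. The authors deposited log2 values of 35557 probe sets. The submitters' processing notes name Affymetrix Expression Console. The log base rests on the span of the values. Its version, and how probes were summarised and normalised, were not given in the sources used here. Values were used as deposited, with no filter. The platform annotation gave 1 gene symbol to 21789 probe sets, several to 1621 and none to 12147. For each of 19938 genes the single-symbol probe set with the highest mean was used, and each member measured had 1. The number of arrays limits the precision.

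limma 3.58.1 in R 4.3.3 (lmFit, eBayes, Benjamini-Hochberg over all genes, tested on simulated data) compared 3 tumours with 1 cerebellum with 2 residual degrees of freedom, and the PtchLacZ/+ tumour with 2 SmoM2 tumours with 1. The fit lets a single array share the spread of the others. The spread among the tumours includes their differences in genotype and age. Members, 7 roles and 15 further lists (166 entries, 153 measured) were chosen with earlier results of these data known. All members could be named, and of other lists the main ligands, receptors and factors and the 2 most changed genes each way. Alternatives were quantile normalization, median centring, the mean of a gene's probe sets, a filter at the lower quartile, a trended prior variance, a fit of all 4 arrays and leaving out each tumour.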

Additional observations from a re-analysis of the deposited data

Results flagged for a closer look

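The PtchLacZ/+ tumour lay on the other side of the cerebellum from both SmoM2 tumours for 3 of the 40 genes, as for 5.87% of all genes. For Tmem119 it was higher than the cerebellum while both SmoM2 tumours were lower, and the PtchLacZ/+ tumour exceeded their mean by 0.37. For Mrc1 and Cd163 it was lower than the cerebellum while both SmoM2 tumours were higher, with differences from their mean of -0.70 and -0.21. None of the 3 passed in the limma test of that difference (adjusted p = 1), and the Cd163 levels in all arrays and the Mrc1 level in the PtchLacZ/+ tumour (5.10, beside 5.14 in the cerebellum) were not shown to be above background.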

How the results depend on the processing

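The count of genes that rose in the tumours was 17 to 19 under quantile normalization, median centring, the mean of probe sets, the lower quartile filter and the trended prior variance, beside 18 of 40 at first. It was 14 without the PtchLacZ/+ tumour (3.15% of all genes rose), 18 without the 1-month tumour (4.98%) and 26 without the 2-month tumour (13.5%), and 14, 16 and 18 of the original 18 were among them. All genes that rose numbered 628 without the PtchLacZ/+ and 2689 without the 2-month tumour, and those that fell 937 and 3321, beside 1336 and 1855. No gene of the 40 fell under any of these settings. The median difference of Cst7, Clec7a and Gpnmb was 3.39 and ran from 3.06 to 3.50 when a tumour was left out. Over the same fits Tmem119 ran from -0.21 to 0.040 and Selplg from -0.18 to 0.11, both turning positive without the 1-month tumour. In the PtchLacZ/+ against SmoM2 comparison no member passed under any setting, while quantile normalization let 2 genes pass as higher and 12 as lower, and the trended prior variance 1 as lower. Leaving out a SmoM2 tumour there leaves no residual degrees of freedom. No paired analysis was possible because the labels link no samples to each other by animal or litter. With 1 cerebellum, its own spread was not measured.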

Other observations

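Some macrophage genes outside the 40 were highest in the 2-month SmoM2 tumour. They were singled out after their values were seen and have no test between the ages. Mmp12, the macrophage elastase gene, was at 9.36 there and 5.62 in cerebellum, 5.70 in the 1-month SmoM2 tumour and 5.99 in the PtchLacZ/+ tumour. The fatty acid scavenger receptor gene Cd36 was at 6.61 there and between 3.94 and 3.98, under the lower quartile, in the other arrays. Hmox1, which encodes the haem-degrading enzyme haem oxygenase 1, was at 9.91 there, beside 6.19 in the cerebellum, 7.44 at 1 month and 7.69 in the PtchLacZ/+ tumour.

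Atp6v0d2, a proton pump subunit gene of macrophages and osteoclasts, read 4.69 in cerebellum, 7.25 at 1 month, 8.47 at 2 months and 6.23 with PtchLacZ/+. All 17 genes of the wider phagocytic list were lower at 1 than at 2 months, as 59.8% of all genes were, with a median of -0.56. Endothelial markers were higher in the same 2-month tumour, and the part of vessels or blood in these values was not tested.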
